A study of Mus musculus with 2 samples.

Results

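Among 2202 microRNA genes measured in the hippocampus of young mice, 7 were followed here as microRNAs of the choroid plexus and of multiciliated cells. They were chosen by name: Mir204 and Mir211, which lie in genes of Trpm cation channels, and Mir449a, Mir449b, Mir449c, Mir34b and Mir34c. Small RNAs with a fragment size below 30 nt were sequenced from total RNA of hippocampus, which the labels also call a layer of hippocampus, taken from males of the strain B6CASTF1/J aged 10 days. The name denotes first-generation offspring of C57BL/6J and CAST/EiJ parents, and no agent or engineered allele is named. The data hold 1 group of 2 biological replicates, each made from 3 males, with different animal numbers but 1 donor identifier in the labels. P-values and SDs therefore measure only how far these 2 samples lie apart, which may be partly technical, and no contrast between conditions exists.

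The choroid plexus is the secretory epithelium that makes cerebrospinal fluid in the ventricles, and miR-204 is known as an abundant microRNA of this epithelium and of the retinal pigment epithelium. Multiciliated cells line the ventricles as ependyma and also cover airways and oviducts, where beating cilia move fluid. The miR-34 and miR-449 families act together there: loss of both is known to impair the formation of motile cilia, in part through the centriolar protein Cp110. These 7 genes are not used here as markers of neurons, and whether neurons gave part of their reads was not tested. In whole tissue, more cells of a type and more RNA per cell cannot be told apart.

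The mature sequences show how the genes fall into families. Each is written 5′ to 3′ with the seed, bases 2 to 8, in capitals, since this stretch does most of the pairing with target transcripts. All are from RefSeq (GRCm38.p6), which held entries for 6 of the 7 genes; Mir449b and the 5p product of Mir34c are named only. Mir34a, a further gene of the family that is widely expressed and induced by p53, is added for comparison.
miR-204-5p: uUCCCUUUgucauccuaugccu
miR-211-5p: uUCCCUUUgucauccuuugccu
miR-449a-5p: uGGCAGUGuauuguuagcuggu
miR-449c-5p: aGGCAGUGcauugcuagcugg
miR-34b-5p: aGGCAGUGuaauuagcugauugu
miR-34a-5p: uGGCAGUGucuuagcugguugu
miR-34b-3p: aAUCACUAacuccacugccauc
miR-34c-3p: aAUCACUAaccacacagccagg

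The products of Mir204 and Mir211 shared 21 of 22 bases and differed by A17U, with positions counted from the 5′ end and the base of miR-204-5p first. The miR-449a-5p, miR-449c-5p, miR-34b-5p and miR-34a-5p products all carried the seed GGCAGUG. Over their whole length, seed included, miR-449a-5p and miR-449c-5p shared 18 of 21 bases (U1A, U9C and U14C), whereas miR-449a-5p and miR-34b-5p shared 10 of 22 when laid side by side without gaps. On the other arm, miR-34b-3p and miR-34c-3p shared the seed AUCACUA and 17 of 22 bases. In the RefSeq table, Mir34a was the only gene outside the 7 with the seed GGCAGUG. The seed UCCCUUU was also found in Mir7670, and the seed of miR-204-3p, CUGGGAA, in Mir7684, each with 0 counts in both libraries.

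The counted unit was the hairpin, the folded precursor from which the mature arms are cut, and the hairpins below show what one count covers. Mature arms are in capitals, and reads from both arms enter 1 value.
Mir204: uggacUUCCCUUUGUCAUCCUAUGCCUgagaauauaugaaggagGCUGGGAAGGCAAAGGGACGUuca
Mir211: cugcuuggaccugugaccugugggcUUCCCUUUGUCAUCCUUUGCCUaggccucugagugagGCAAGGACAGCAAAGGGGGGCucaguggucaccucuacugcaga
Mir449a: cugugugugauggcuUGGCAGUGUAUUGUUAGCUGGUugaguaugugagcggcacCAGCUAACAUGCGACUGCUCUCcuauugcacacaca
Mir449c: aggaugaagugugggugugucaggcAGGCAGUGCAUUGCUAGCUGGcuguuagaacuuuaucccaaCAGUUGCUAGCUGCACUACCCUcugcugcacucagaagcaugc

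None of the 7 hairpins shared 20 or more consecutive bases with another measured hairpin. The longest run shared in the same orientation was 17 bases, between Mir204 and Mir211. Only exact runs were sought, and A17U, the 1 base that differs between their 5p products, ends this run. For Mir449a the longest run was 14 bases, with Mir679, and for Mir34b and Mir34c it was 11 bases, with Mir27b. Only 1 partner was kept where runs tied, and Mir34b also shared 11 bases with Mir449b. The partner named is thus not a measure of likeness. Reads that fit several places were left out of the gene counts. How reads with a mismatch were assigned is not given in the sources used here. Exact runs therefore cannot show whether reads of Mir204 and Mir211 were kept apart.

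By position, 5 of the 7 genes lay in introns of genes on the same strand. In mm10 coordinates, Mir204 (chr19:22750605-22750672, plus strand) lay in an intron of Trpm3, a channel gene active in the choroid plexus. Mir211 (chr7:64205806-64205911, plus strand) lay in an intron of Trpm1, a channel gene known from melanocytes and retinal bipolar cells. The Mir449 genes lay in intron 2 of Cdc20b, a gene switched on during multiciliated cell differentiation: Mir449c (chr13:113035983-113036091), then Mir449b (chr13:113037419-113037498) 1327 bases further on, then Mir449a (chr13:113037534-113037624) after another 35 bases, all on the plus strand. Mir34b (chr9:51103562-51103645) and Mir34c (chr9:51103034-51103110) were 451 bases apart on the minus strand. No annotated gene contained that pair on their own strand, and on the opposite strand they fell in intron 1 of Btg4. Mir34a (chr4:150068454-150068555, plus strand) lay within no other annotated gene.

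The depth was 4815761 counts on microRNA genes for replicate 1 and 3495401 for replicate 2. Levels are given as CPM, that is, counts per 1000000 of these. A gene with no count could thus have had a level of 0.623 CPM in the first library and 0.858 CPM in the second, since the limit was set at 3 counts. That limit and all intervals cover counting error only. Reads that fit several places made up 37.7% and 39.8% of all reads. A list of 20 microRNAs of neurons, led by Mir139, held 8.24% and 10.7% of the counts of the 2 libraries. The list was chosen with earlier results of these data known and no other tissue was compared, so these shares do not test the tissue. Mir124a-1, a defining neuronal gene whose copies share its sequence and which was named after its value was seen, held 13 and 11 uniquely assigned counts. Each small RNA read stands for a whole product, so no scaling by length was applied, and equal capture of different sequences by the library method was not examined.

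The 7 genes together took 0.258% of counts in replicate 1 (95% exact Clopper-Pearson interval 0.254 to 0.263%) and 0.533% in replicate 2 (0.526 to 0.541%), or 12432 and 18641 counts. Nearly all of these came from 3 genes. In replicate 1, Mir449a held 54.8% of the 7 genes' counts, Mir34c 28.7% and Mir204 15.8%. In replicate 2 the shares were 46.2%, 26.3% and 26.4%. The other 4 genes together reached only 84 and 210 counts.

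Mir449a was the most abundant of the 7 in both libraries, at 1416 CPM in replicate 1 and 2463 CPM in replicate 2 (6817 and 8609 counts). Its mean of 1939 ± 741 CPM (SD, n = 2) placed it 82nd among all 2202 genes, between Mir30e and Mir125b-1. Its 2 neighbours in Cdc20b lay at the other end of the range. Mir449c held 10 counts in replicate 1 and 16 in replicate 2, or 2.08 and 4.58 CPM. Mir449b held 0 counts in replicate 1, where the 3-count limit is 0.623 CPM (exact Poisson interval 0 to 0.766). In replicate 2 it held 6 counts, or 1.72 CPM (exact Poisson interval 0.63 to 3.74).

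Within the reads of the 3 Mir449 genes, Mir449a took 99.9% in replicate 1 and 99.7% in replicate 2. This split does not depend on library scaling. Mir449c took 0.146% (0.0703 to 0.269) and 0.185% (0.106 to 0.301), and these intervals overlap. Mir449a was 682 times as abundant as Mir449c in replicate 1 (370 to 1422) and 538 times in replicate 2 (331 to 942), although 1 intron holds both and their 5p products differ at 3 of 21 bases.

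Mir34c, the next of the ciliated-cell genes, reached 740 CPM in replicate 1 and 1402 CPM in replicate 2 (3564 and 4901 counts). The mean was 1071 ± 468 CPM (SD, n = 2), 106th among all genes, between Mir300 and Mir28a. Its partner Mir34b had 72 and 178 counts, or 15.0 CPM (11.7 to 18.8) and 50.9 CPM (43.7 to 59.0). Mir34b also carried 1 antisense count in each library, and the other 6 genes carried none. As in the Mir449 run, 1 gene held most of the reads, but by a smaller factor: Mir34c exceeded Mir34b by 49.5 times in replicate 1 (39.2 to 63.4) and by 27.5 times in replicate 2 (23.7 to 32.2). The share of Mir34b in the pair was 1.98% (1.55 to 2.49) in replicate 1 and 3.50% (3.02 to 4.05) in replicate 2, and here the intervals did not overlap.

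For Mir204 the level was 408 CPM in replicate 1 and 1408 CPM in replicate 2 (1967 and 4921 counts). Its mean of 908 ± 707 CPM (SD, n = 2) placed it 116th, between Mir181a-1 and Mir15b, but it stood 146th in replicate 1 and 97th in replicate 2. Mir211, which shares the seed of Mir204, was close to the limit of detection, with 2 counts in replicate 1 and 10 in replicate 2, or 0.415 CPM (0.0503 to 1.50) and 2.86 CPM (1.37 to 5.26). Of the reads on the pair, Mir204 took 99.9% and 99.8%.

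Mir34a, the seed relative outside the 7, had 289 and 454 CPM, a mean of 372 ± 117 CPM (SD, n = 2). Of all reads on the 3 Mir34 and 3 Mir449 genes, Mir449a took 57.5% in replicate 1 and 56.3% in replicate 2, Mir34c 30.1% and 32.0%, and Mir34a 11.8% and 10.4%. The 2 leading ciliated-cell genes thus held most reads of the family in both libraries.

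The order of levels was Mir449a, Mir34c, Mir204, Mir34b, Mir449c, Mir211 and Mir449b. Mir449a exceeded Mir34c and Mir204 in both libraries. Mir34c and Mir204 did not keep an order: Mir34c was 1.81 times Mir204 in replicate 1 (1.71 to 1.92) and 0.996 times in replicate 2 (0.957 to 1.04). Mir34b lay well below these 3 and above the last 3 in both libraries. Among Mir449c, Mir211 and Mir449b, neighbours had overlapping counting intervals in each library, so the order of neighbours was not resolved at this depth. Mir449c (0.996 to 3.82 CPM) and Mir449b (0 to 0.766 CPM) did not overlap in replicate 1. In replicate 2 these 2 genes did (2.62 to 7.43 and 0.63 to 3.74 CPM).

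**Figure D1:**
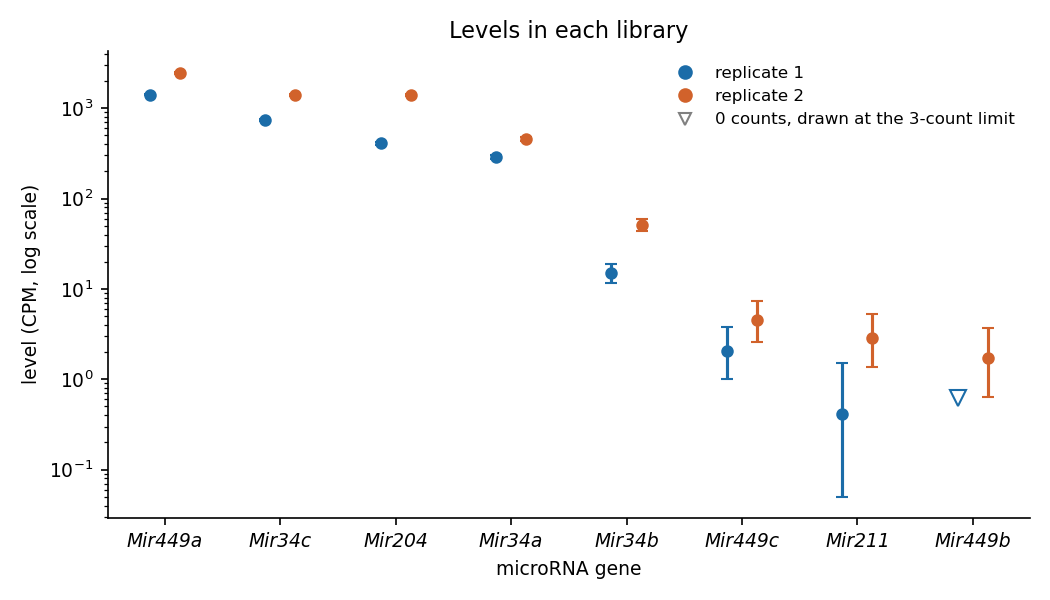
Level of each of the 7 genes and of Mir34a in replicate 1 (blue) and replicate 2 (orange), in CPM on a log axis, with 95% exact Poisson intervals for counting error; the open triangle marks Mir449b in replicate 1, with 0 counts, at its limit of 0.623 CPM. Mir449a, Mir34c and Mir204 lie between 408 and 2463 CPM, Mir34b at 15.0 and 50.9 CPM, and Mir449c, Mir211 and Mir449b below 5 CPM.

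**Figure D2:**
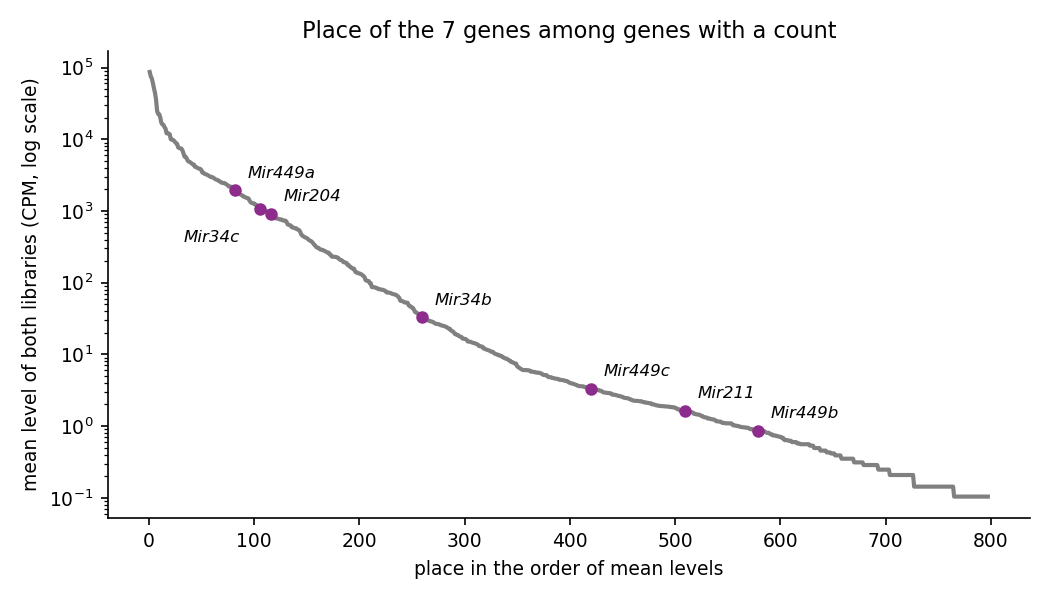
Mean level of both libraries in CPM (log axis) against the place of each gene in the order of mean levels, for genes with at least 1 count (grey line), with the 7 genes as points. Mir449a stands 82nd, Mir34c 106th and Mir204 116th, while Mir34b stands 260th, Mir449c 420th, Mir211 509th and Mir449b 579th.

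Mir204 was 3.45-fold and Mir34b 3.41-fold higher in replicate 2 than in replicate 1, and both passed the test. Mir34c and Mir449a differed less, at 1.89-fold and 1.74-fold. The comparison describes these 2 libraries and not conditions. Each of the 540 genes with at least 10 counts in total was given an exact binomial test (two-sided, adjusted by Benjamini-Hochberg over all 540), and was called where the adjusted p was below 0.05 and the log2 ratio reached 1 in either direction.

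Of the 6 genes tested, 3 were called, and all 3 were higher in replicate 2: Mir204, Mir34b and Mir211. Over all 540 tested genes, 18.7% were called, 11.5% as higher in replicate 2 and 7.22% as lower. Of all calls, 61.4% were thus higher in replicate 2, a split that moved to 52.1% with TMM and 45.5% with DESeq2 scaling, where the median of all tested genes was 0.09 and 0.0051. By the adjusted p alone, 5 of the 6 passed, all higher in replicate 2, against 55.7% of all tested genes, or 32.4% counting those higher in replicate 2, so a pass on p alone was common in these deep libraries. The median log2 ratio of the 6 was 1.44, beside a median of 0.17 over all tested genes with library totals as sizes. Mir211 passed the filter on counts only through its 10 counts in replicate 2, so it had to lie higher there, and Mir449b, with 6 counts in total, was not tested.

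For Mir204 the log2 ratio was 1.79 with a standard error of 0.04 from counting alone, and its adjusted p was below the smallest number the calculation can hold. Of the 281 tested genes averaging 100 counts or more, 5 had a higher ratio. Mir34b had a log2 ratio of 1.76 ± 0.20 (SE) and an adjusted p of 5.4e-20, with 7 of those 281 genes above it. Mir211 had 2.53 ± 1.02 (SE) and an adjusted p of 0.011, on 2 and 10 counts. Of these 3 calls, that of Mir211 thus rests on the fewest reads by far. Its 5p product differs from that of Mir204 at 1 of 22 bases. Whether some of its reads came from Mir204, with 1967 and 4921 counts, was not tested, so it may not be a separate call.

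Mir34c had a log2 ratio of 0.92 ± 0.03 (SE) and an adjusted p of 2.5e-187, and Mir449a had 0.80 ± 0.02 (SE) and 8.8e-257. Both differed beyond counting error but stayed under the ratio minimum, and 35 and 49 of the 281 well-counted genes had a higher ratio. Mir449c, at 1.11 ± 0.57 (SE) on 10 and 16 counts, had an adjusted p of 0.082 and did not pass. The spread between replicates over 427 genes, as edgeR's common biological coefficient of variation, was 38.6%. That value was estimated after TMM scaling and apart from counting error. The coefficient of variation of CPM, on library totals and with counting error included, was 38.2% for Mir449a and 43.7% for Mir34c. It was 77.2% for Mir34b and 77.8% for Mir204. Because the measures are unlike, small differences from 38.6% are not read.

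Ratios between genes within a library do not depend on scaling. Mir449a was 1.91 times Mir34c in replicate 1 (1.84 to 1.99) and 1.76 times in replicate 2 (1.70 to 1.82), and Mir34c was 2.56 times (2.40 to 2.72) and 3.09 times (2.92 to 3.27) Mir34a. The ratio of Mir449a to Mir204 moved further, from 3.47 (3.30 to 3.65) to 1.75 (1.69 to 1.81). Mir204 thus took a larger part of the 7 genes' reads in replicate 2, and the ratio of Mir449a to Mir34c changed less between the libraries than the ratio of either to Mir204.

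**Figure D3:**
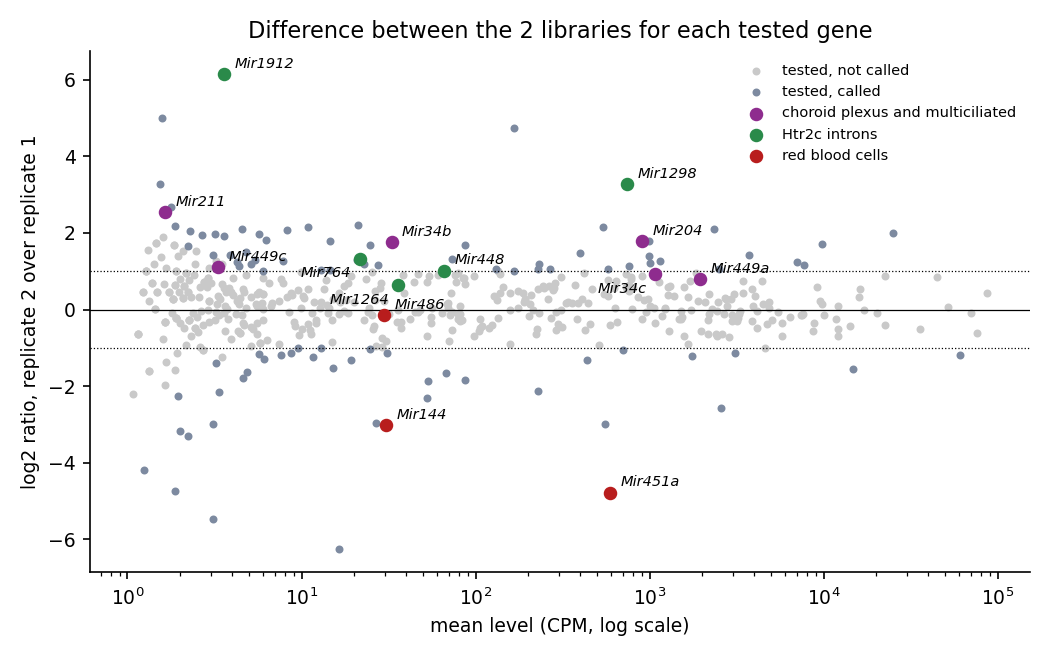
Log2 ratio of replicate 2 over replicate 1, with 0.5 counts added, against mean level in CPM (log axis) for each of the 540 tested genes; dotted lines mark the ratio minimum of 1 in each direction, and colours mark the choroid plexus and multiciliated genes, the genes of the Htr2c introns and the red blood cell genes. The 6 tested members all lie above 0, Mir204 and Mir34b at 1.79 and 1.76, while Mir451a lies at -4.78; the ratio of Mir1912, with 0 counts in replicate 1, depends on the counts added.

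By closeness of the log2 ratio among genes with a mean level within 2 times, the 3 genes most like Mir204, out of 59, were Mir21a (1.78), Mir329 (2.14) and Mir29a (1.40). For Mir449a, out of 63 such genes, they were Mir26b (0.75), Mir3099 (0.73) and Mir300 (0.71). With 2 libraries, this likeness is a single number per gene.

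A second set of microRNAs, tied to the choroid plexus by its host gene, also lay higher in replicate 2. This set was chosen with earlier results of these data known, and from which cells its reads came was not tested. Htr2c encodes a serotonin receptor that is strongly expressed in choroid plexus epithelium and also in neurons, and its introns hold 5 microRNA genes. Mir1298 went from 139 CPM in replicate 1 to 1343 CPM in replicate 2 (670 and 4696 counts), a log2 ratio of 3.27. Mir448 had 43.4 and 87.8 CPM, Mir764 had 12.3 and 30.9 CPM, and Mir1264 had 28.0 and 43.5 CPM. Mir1912 had 0 and 25 counts, and so was at least 11.5-fold higher in replicate 2, taking 3 counts as the limit in replicate 1.

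Of these 5 genes, 4 were called higher in replicate 2, all but Mir1264, whose log2 ratio was 0.63 (adjusted p = 0.00047 by the same binomial test), beside 11.5% of all tested genes called higher. Mir1912 passed the filter on counts only through replicate 2, so its direction was fixed. Mir448, at 1.02, stood just past the ratio minimum, and at 0.93 with TMM or 0.85 with DESeq2 scaling it was not called, which left 3 of 5. Their summed level was 223 and 1513 CPM, a 6.79-fold difference, beside 3.45-fold for Mir204 and Mir211 summed and 1.81-fold for the 5 ciliated-cell genes summed. Mir1298 alone had 139 and 1343 CPM of the Htr2c sums. By gene, Mir764, Mir448 and Mir1264 were only 2.52-fold, 2.02-fold and 1.55-fold higher in replicate 2. Mir204 was 2.94 times Mir1298 in replicate 1 (2.69 to 3.21) and 1.05 times in replicate 2 (1.01 to 1.09), so the 2 genes did not keep a fixed ratio either.

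Lists of other cell types differed between the libraries as well, and their part in these results was not tested. The calls below stand beside 11.5% of all 540 tested genes called higher in replicate 2 and 7.22% called lower. On the adjusted p alone 55.7% passed, and the share at an unadjusted p was not computed over all tested genes. The red blood cell list, Mir451a, Mir144 and Mir486, summed to 1229 and 76.4 CPM, with 2 of 3 genes called lower in replicate 2. Mir451a, the main microRNA of red blood cells, had 1143 and 41.5 CPM. The endothelial list, with Mir126b at 0 counts in both libraries, summed to 14888 and 9301 CPM, and its gene Mir126a was not called. The list named myeloid summed to 495 and 906 CPM with 2 of 4 genes called higher. With TMM or DESeq2 scaling it was 1 of 4, where Mir150 was not called. Mir150, which is not particular to myeloid cells, had 372 and 776 CPM of these sums. The log2 ratio was -0.33 for Mir142, 0.10 for Mir155 and 2.08 for Mir223, the last on 15 and 47 counts. The oligodendrocyte list summed to 1037 and 1740 CPM. By the binomial test 0 of its 3 genes were called, or 1 lower with either other scaling, and at an unadjusted p below 0.05 alone 2 were higher and 1 was lower. The mural list summed to 3962 and 4390 CPM with 1 of 2 genes called higher, and its fold of 1.11 was 0.987 with DESeq2 factors. The neuronal list summed to 82439 and 106843 CPM with 1 of 18 tested genes called in each direction. Mir139 alone had 31820 and 57346 CPM of these sums. At an unadjusted p below 0.05 alone in the binomial test, 8 neuronal genes were higher and 6 were lower, or 8 and 8 with DESeq2 scaling.

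**Figure D4:**
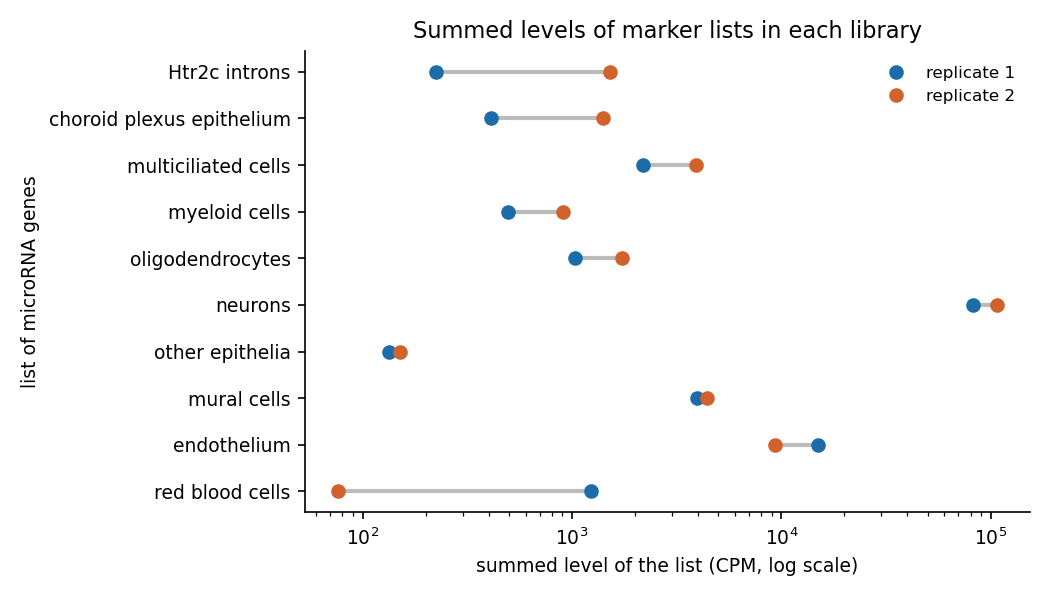
Summed level of each marker list in CPM (log axis) in replicate 1 (blue) and replicate 2 (orange), joined by a grey line. The genes of the Htr2c introns (223 and 1513 CPM), of choroid plexus epithelium (409 and 1411 CPM) and of multiciliated cells (2173 and 3922 CPM) were higher in replicate 2, as were the myeloid (495 and 906 CPM) and oligodendrocyte (1037 and 1740 CPM) lists, and the red blood cell list (1229 and 76.4 CPM) was lower. Single genes weighed on some sums: Mir1298 had 139 and 1343 CPM of the Htr2c sums. Mir150 had 372 and 776 CPM of the myeloid sums, and Mir139 had 31820 and 57346 CPM of the neuronal sums.

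MicroRNAs of other epithelia formed a further list, of 10 genes, among them the miR-200 family, which maintains epithelial character. Of the 8 genes tested by the binomial test, 0 were called higher in replicate 2 and 1 was called lower. Among all 540 tested genes, 11.5% were called higher and 7.22% lower, so counts this small say little about the list. The gene called lower was Mir200c, at 27.4 and 10.9 CPM. With DESeq2 scaling 2 of the list were called lower, Mir205 being added. At an unadjusted p below 0.05 alone, 1 was higher and 3 were lower. The share of all tested genes at that mark was not computed, and 55.7% passed on the adjusted p alone. Their median log2 ratio was -0.49, and 3 of 8 lay above 0. Their summed level was 133 and 150 CPM, a fold of 1.12 that was 1.06 with TMM sizes and 1.00 with DESeq2 factors. Mir203, a microRNA of skin epithelium, was the largest part in both libraries, but it made up most of the sum only in replicate 2. It had 60.8 and 107.6 CPM (log2 ratio 0.82, adjusted p = 7.3e-13 by the binomial test). The summed fold of 1.12 thus joined a higher Mir203 with a list whose median log2 ratio lay below 0. Mir96 had 0 counts in both libraries. Whether this list and the 7 genes differed from each other was not tested.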

How the data were processed

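Small RNA libraries of hippocampus from 2 replicates were used. The deposited values are raw read counts per microRNA hairpin, unstranded and per strand, aligned to mm10 with the M21 annotation, per the file notes deposited with them. Names and versions of the aligner and counter: not given in the sources used here. Counts on the sense strand (column 3, the strand with the larger total) were used as deposited. The 4 lines of totals for reads on no gene entered neither library sizes nor tests. Counts on genes made up 38.9% of all reads in replicate 1 and 34.6% in replicate 2. All 2202 identifiers matched GENCODE M21, which gave symbols and positions. Sequences came from RefSeq (GRCm38.p6).

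CPM, shares with exact intervals at the 95% level and the library comparison (exact two-sided binomial test per gene given library totals, Benjamini-Hochberg adjustment, at least 10 counts over both libraries, 0.5 counts added for log2 ratios) were computed from the counts. The comparison was also run on simulated counts with planted changes. Those counts held counting error only, with no spread between replicates, so that run does not cover the spread seen in these libraries. Because there is 1 group, edgeR and DESeq2 served only for scaling and spread. Named genes were the 7 members, Mir34a, other genes with a member's seed, the Htr2c intron and epithelial lists, the most abundant gene of each other list, the 3 genes most like Mir204 and Mir449a, and neighbours in the order of levels. The members and lists were chosen with earlier results of these data known. Alternatives covered scaling, filters, the ratio minimum, the added counts, the strand, the denominator and each replicate left out. The tools were R 4.3.3 with DESeq2 1.42.0 and edgeR 4.0.16, and SciPy 1.17.1, pandas 2.3.3 and numpy 2.4.6 under Python 3.11.15.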

Additional observations from a re-analysis of the deposited data

How the results depend on the processing

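The log2 ratios of Mir204, Mir34b, Mir34c, Mir449a and Mir449c lay above 0 with TMM sizes, DESeq2 size factors, 2 counts added or unstranded counts; the filters and the ratio minimum do not alter a ratio. Mir204 and Mir34b were called in every setting, at 1.62 and 1.60 with DESeq2 size factors and 1.70 and 1.68 with TMM sizes. Mir211 was called wherever it was tested and was not tested with at least 50 counts, which left 2 members called. Without a ratio minimum, 5 members and 301 genes were called, with Mir449a and Mir34c added. With at least 50 counts 67 genes were called, fewer being tested. With at least 1 count, 4 members were called, Mir449b among them (adjusted p = 0.016 by the binomial test), beside 13.9% of all genes tested there; with 0 and 6 counts, Mir449b could only lie higher in replicate 2. Scaling by library totals, TMM or DESeq2 put the median log2 ratio over all 540 genes at 0.17, 0.09 and 0.0051, and the share of calls that were higher in replicate 2 at 61.4%, 52.1% and 45.5%. The summed share of the 7 genes, 0.396% ± 0.195 (SD, n = 2), was 0.142% when set against all reads, mapped or not, in place of counts on genes, and it ranged from 0.258 to 0.533% with each replicate left out. No paired analysis was possible because the labels give 1 group. Counts of at most 16 per library limit what can be said of Mir211, Mir449b and Mir449c.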
